A study of Mus musculus with 6 samples.

Results

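The genes of respiratory complexes I, II, IV and V were followed in the colon of 6 mice with chemically induced colitis, 3 Pparg-deficient mice and 3 control littermates. Genes were taken by symbol from the platform annotation: names that begin with Nduf for complex I, Sdha to Sdhd for complex II, names from Cox4 to Cox8 for complex IV and names that begin with Atp5 for complex V. The rule found 82 genes among the 18194 genes with a probe set of their own: 36 complex I subunits, 8 complex I assembly factors, 4 complex II subunits, 17 complex IV genes and 17 complex V genes. They carried 163 probe sets, the groups of short probes that measure 1 transcript on an Affymetrix array, and each gene was represented by its brightest one.

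The Pparg-deficient mice were PPAR gamma fl/fl and carried Cre recombinase at the LysM promoter (Lysozyme M cre+), whose gene, Lyz2, is active in macrophages and other myeloid cells. The control mice were PPAR gamma fl/fl littermates without Cre (Lysozyme M cre-), labelled wild-type in phenotype. All were C57BL/6 and 6 to 8 weeks old, and all received 2.5% dextran sodium sulfate (DSS), which injures the colonic epithelium, in the drinking water until day 7. Total RNA of whole colonic tissue was measured on 1 array per mouse, and no array without DSS was analysed here. Because the Cre+ mice alone carried Cre at the Lyz2 locus, Cre and the loss of PPAR gamma cannot be told apart.

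Complexes I and II pass electrons from NADH and succinate to ubiquinone, complex IV hands them to oxygen, and complex V, the ATP synthase, uses the proton gradient so built to make ATP. The colonic epithelium depends heavily on this pathway, because butyrate from the microbiota is oxidised in its mitochondria, whereas activated macrophages and neutrophils lean more on glycolysis. PPAR gamma is a nuclear receptor of lipid metabolism, and its relative PPAR alpha and the coactivator PGC-1 alpha are known activators of fatty acid oxidation and of mitochondrial biogenesis. Complex III and the subunits encoded by mitochondrial DNA fall outside the rule.

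Values are log2 expression summaries with a floor of 2.25, the lowest value, and differences are deficient minus control on the log2 scale. Some probe sets read flat at a higher level of their own. Examples on all 6 arrays are the striated muscle marker Actn3 at 2.53 and a dim probe set of Atp5j2 at 3.42. Each array had from 41.4% to 42.7% of its probe sets above log2 4. Deficient replicate 3 and control replicate 1 stood apart: the median over 13 small intestine enterocyte markers was 10.45 and 11.61 there, against 4.21 to 7.14 on the other 4 arrays. The median over 12 colonocyte markers was 5.35 and 3.11 on the same pair, against 7.68 to 9.37 elsewhere, so these arrays carried small intestine signal under a colon label. The summed level of the colonocyte markers, on the log2 scale, was 12.54 on control replicate 1 and 15.22 to 15.67 on the 4 others, with deficient replicate 3 just below that range. Medians of the set, of each complex and of its subunit groups are therefore also given without this pair and between its members. The targeted gene, Pparg, was 8.77, 8.23 and 4.15 in deficient colons and 5.28, 9.91 and 9.54 in control colons, with the lowest values on the 2 arrays that stood apart, and the groups overlapped. Whether its probes lie in the deleted part of the gene was not analysed here, so these values do not check the deletion. Lyz2, the locus that carries Cre, was 6.80, 6.24 and 10.39 in deficient colons and 12.32, 11.79 and 12.19 in control colons. Those groups did not overlap, with a difference of -4.29 and an adjusted p of 0.659 in limma.

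Most respiratory complex genes differed little between Pparg-deficient and control colons, and none passed the test. Of the 82 genes, 75 passed the filter on low values, which asked for log2 4 on at least 3 of 6 arrays. In deficient colons 39 of these (52%) were higher and 36 lower, beside 57.1% higher among all genes. The median difference of the 75 genes was 0.0067, beside 0.057 over all 10491 genes tested. Of the 75, 68 (90.7%) lay within 0.25 of 0, beside 50.8% of all genes. None of the 75 passed an adjusted p of 0.05 in limma with Benjamini-Hochberg adjustment over all genes, where 0% of all genes did. At an unadjusted p of 0.05 none did either, beside 7.46% of all genes. The smallest p of the set was 0.0675, for Cox8b. The 95% limma interval stayed within 1 log2 unit of 0, a 2-fold change, for 69 of 75 genes (92%), beside 53.2% of all genes. The other 6 were Cox7a1, Cox8b, Cox7c, Ndufaf5, Ndufs5 and Ndufb5. The interval stayed within 0.5 log2 units of 0 for only 19 of the 75 genes, beside 886 of all 10491. For the rest, a change of 0.5 log2 units was not excluded. The set's range over the 6 arrays had a median of 0.51, against 0.98 over all genes. The median SD within a genotype was 0.20 for the set, against 0.35 over all genes. The set and all genes were not matched for expression level in these comparisons. Narrow differences were not particular to the set: for complex III and cytochrome c they ran from -0.16 to 0.16. Fewer cells of a type and less RNA per cell cannot be told apart in whole tissue.

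**Figure D1:**
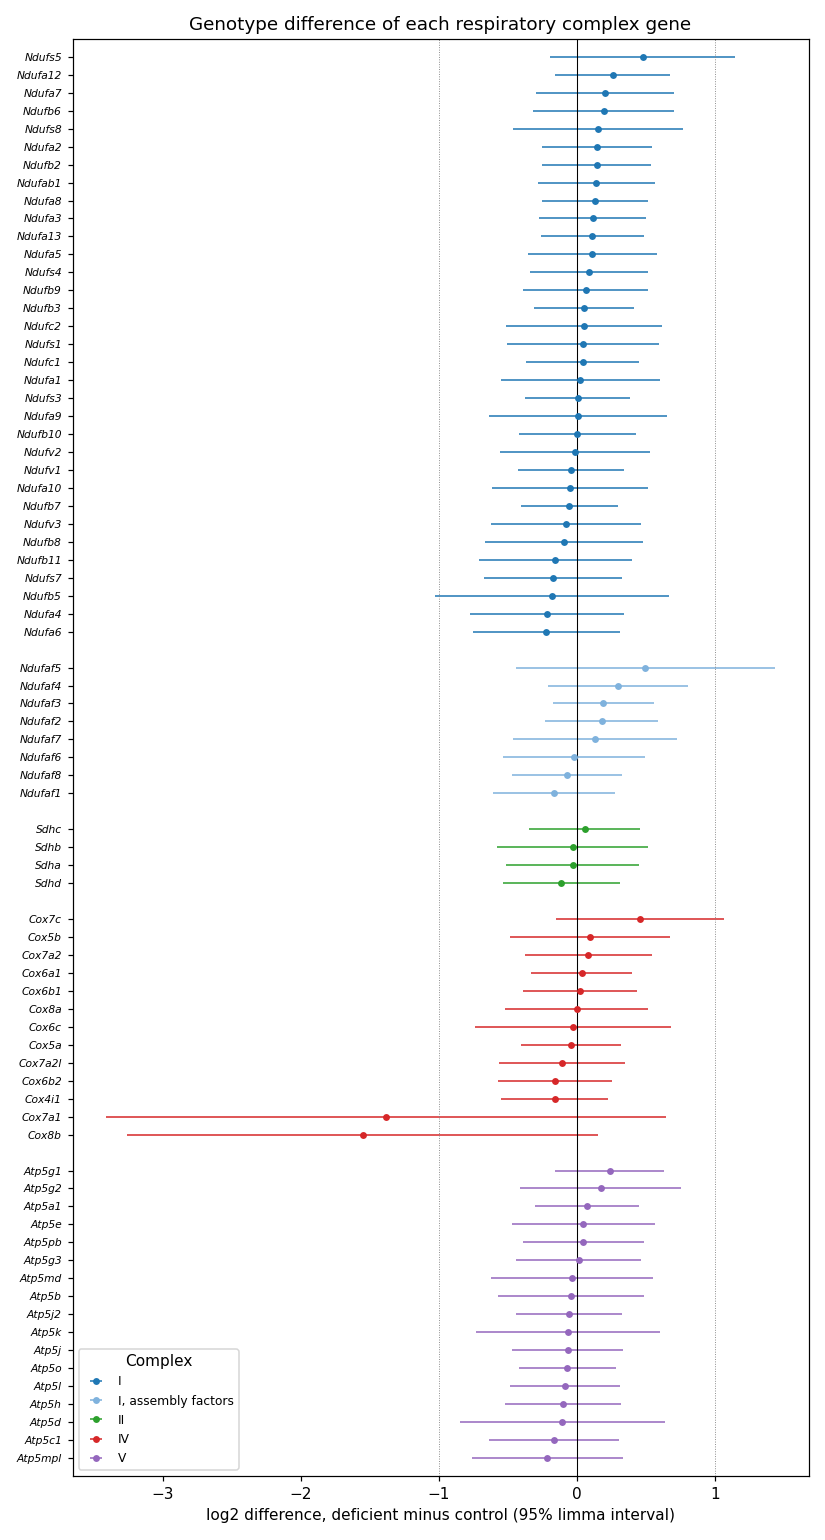
Log2 difference, Pparg-deficient minus control, of the 75 tested respiratory complex genes (points) with the 95% limma interval (lines), sorted within each complex and coloured by complex. Dotted lines mark a difference of 1 log2 unit in either direction; the points of Cox7a1 and Cox8b alone lie beyond them, with intervals that include 0.

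**Figure D2:**
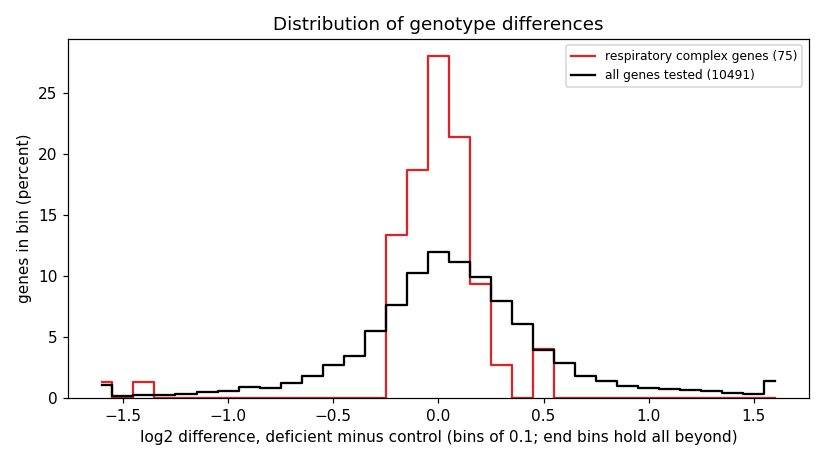
Percent of genes in each bin of 0.1 log2 units of the difference deficient minus control, for the 75 respiratory complex genes (red) and all 10491 genes tested (black). The red outline is the narrower and lies mostly within 0.25 of 0. The set and all genes were not matched for expression level.

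Without deficient replicate 3 and control replicate 1 the median of the 75 genes was -0.034, and between these 2 arrays it was 0.079. The groups did not overlap for 3 of the 75 genes, all of them higher in deficient colons, beside 13.5% of all genes tested in either direction and 9.36% higher. Atp5g1, which encodes subunit c of the ATP synthase rotor, was 12.24, 12.06 and 12.18 in deficient colons, against 11.98, 11.74 and 12.04 in control colons. Ndufa12, an accessory subunit of complex I, was 12.16, 11.86 and 12.03 in deficient colons, against 11.85, 11.58 and 11.83 in control colons. Ndufaf3, an assembly factor of complex I, was 7.81, 7.69 and 7.65 in deficient colons, against 7.62, 7.43 and 7.53 in control colons. These gaps were narrow: the lowest deficient value lay within 0.05 of the highest control value in each case, and the adjusted p was 0.749 for Atp5g1, 0.745 for Ndufa12 and 0.778 for Ndufaf3.

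Many nuclear genes of respiration have in their promoters the palindrome bound by the factor NRF1, so the 250 bases before the start of transcription were searched as a feature that the rule did not use. RefSeq windows (GRCm38.p6) were matched for 69 of the 82 genes, in 74 windows, and both strands were read. The NRF1 palindrome, GCGCA, any base and GCGC, stood in 13 windows of 12 genes, or 17.6%, against 3.74% of all 32851 windows. The ETS letters CCGGAAG, read by the factor GABP, stood in 16.2% of the set's windows, against 6.91% of all windows. AANATGGCG, the letters of YY1, stood in 4.05% of the set's windows, against 1.12% of all, and the ERR letters TCAAGGTCA in 1.35% of the set's, against 0.387% of all. A strict PPAR element, 2 copies of AGGTCA with any base between them, was in none of the 74 windows and in 0.0335% of all windows. TATAAA, the core of a TATA box, stood in 10.8% of the set's windows, against 12.4% of all. The median GC content was 57.6% in the set's windows and 52.4% in all windows. These are letter matches in 1 window length, not sites of binding.

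The windows of 3 housekeeping genes with NRF1 letters are set beside those of the muscle isoforms Cox7a1 and Cox8b, the genes with the largest differences. Capitals mark NRF1 and GABP letters on either strand, and no marked stretches overlap. On GRCm38.p6 they lie at chr13:74350241-74350490 on the minus strand for Sdha, chr9:50603850-50604099 on the minus strand for Sdhd, chr5:115348959-115349208 on the minus strand for Cox6a1, chr7:30183921-30184170 on the plus strand for Cox7a1 and chr7:140900447-140900696 on the minus strand for Cox8b. Each is printed 5′ to 3′ on the gene's strand.
Sdha: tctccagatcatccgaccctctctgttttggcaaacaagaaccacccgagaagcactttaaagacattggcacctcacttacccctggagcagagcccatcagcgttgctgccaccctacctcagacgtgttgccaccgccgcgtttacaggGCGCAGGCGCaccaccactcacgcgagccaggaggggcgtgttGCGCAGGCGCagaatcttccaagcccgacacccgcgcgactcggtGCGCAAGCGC
Sdhd: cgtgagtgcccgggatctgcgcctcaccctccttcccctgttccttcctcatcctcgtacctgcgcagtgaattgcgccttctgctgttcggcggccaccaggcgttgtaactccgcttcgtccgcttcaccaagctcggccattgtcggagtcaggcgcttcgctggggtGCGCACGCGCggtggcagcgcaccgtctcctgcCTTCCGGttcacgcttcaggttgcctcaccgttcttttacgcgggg
Cox6a1: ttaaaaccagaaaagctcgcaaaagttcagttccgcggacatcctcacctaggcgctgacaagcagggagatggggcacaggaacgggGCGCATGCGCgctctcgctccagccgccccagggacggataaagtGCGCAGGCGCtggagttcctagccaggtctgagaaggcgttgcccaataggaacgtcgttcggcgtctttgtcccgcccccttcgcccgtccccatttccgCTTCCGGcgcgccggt
Cox7a1: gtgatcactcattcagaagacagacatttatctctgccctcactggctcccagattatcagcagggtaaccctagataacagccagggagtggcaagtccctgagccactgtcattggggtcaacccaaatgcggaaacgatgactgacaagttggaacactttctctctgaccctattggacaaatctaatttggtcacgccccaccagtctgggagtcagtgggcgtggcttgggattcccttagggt
Cox8b: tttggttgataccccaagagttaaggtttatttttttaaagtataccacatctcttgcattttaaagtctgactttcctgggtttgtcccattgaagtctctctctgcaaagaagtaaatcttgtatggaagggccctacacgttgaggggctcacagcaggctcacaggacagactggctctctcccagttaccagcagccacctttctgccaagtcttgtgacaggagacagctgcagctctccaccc
Sdha held the NRF1 letters 3 times, Cox6a1 2 times with 1 GABP match, and Sdhd held both 1 time. None of the motifs searched was found in the windows of Cox7a1 or Cox8b. That was also so for their widely expressed counterparts Cox7a2 and Cox8a and for Cox5a and Cox5b.

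In complex I, 33 subunits were tested, and 22 (66.7%) were higher and 11 lower in deficient colons, beside 57.1% higher among all genes. The median difference of complex I was 0.045, beside 0.057 over all genes. It was 0.011 without the 2 arrays that stood apart and 0.096 between them. The 6 core subunits tested include those that carry the flavin and iron-sulfur clusters. These 6 lay at a median of -0.0013 (-0.032 without the 2 arrays that stood apart, 0.038 between them). Ndufv1, the flavin subunit that takes electrons from NADH, was 11.39, 11.13 and 11.25 in deficient colons, against 11.21, 11.27 and 11.42 in control colons, and the groups overlapped. Ndufv2 differed by -0.01, Ndufs1 by 0.04 and Ndufs3 by 0.01. Ndufs7 and Ndufs8, which hold clusters near the ubiquinone site, differed by -0.17 and 0.15.

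The 27 accessory subunits of complex I had a median difference of 0.052 (0.048 without those 2 arrays, 0.13 between them), with 19 higher and 8 lower. Highest was Ndufs5, at 11.12, 11.44 and 11.23 in deficient colons and 11.13, 10.98 and 10.26 in control colons. Control replicate 3 was the low array and the groups overlapped, with a difference of 0.48 (SE 0.27, adjusted p 0.719). Without control replicate 3 the difference was 0.21. Ndufa7 followed Ndufa12 with 0.21. Lowest were Ndufa6 at -0.22, Ndufa4 at -0.22 and Ndufb5 at -0.18. Ndufa4 is named for complex I but is known as a subunit of complex IV. It was 12.47, 11.92 and 12.65 in deficient colons, against 12.56 on each of the 3 control arrays, so that deficient replicate 2 was the low value and the others lay close to the controls.

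The probe sets of Ndufa12 disagreed. The brightest, 1433513_x_at, gave the difference of 0.26 above. Probe set 1455806_x_at read 12.37, 12.36 and 12.25 in deficient colons, against 11.04, 11.08 and 10.60 in control colons. The groups were wide apart there, by 1.42 (SE 0.19, unadjusted p 0.00031), yet the adjusted p was 0.517 in limma over all 17031 kept probe sets, of which 0.00587% passed. The difference was 1.53 without the 2 arrays that stood apart and 1.20 between them. Probe set 1418814_s_at read 11.19, 10.53 and 11.32 in deficient colons, against 11.12, 11.00 and 11.46 in control colons, a difference of -0.18. An x in a probe set's suffix marks probes that can bind other transcripts, and a pseudogene, Ndufa12-ps, is listed in RefSeq. Which transcript 1455806_x_at measured was not tested. Among the 40 genes of the set with at least 2 kept probe sets, the median spread between a gene's differences was 0.10, and Ndufa12 alone exceeded 0.5, at 1.60.

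The 8 Ndufaf assembly factors, which build complex I without staying in it, had a median difference of 0.16, with 5 higher and 3 lower. Ndufaf5 was 5.90, 5.16 and 5.83 in deficient colons, against 5.48, 4.41 and 5.50 in control colons, and the groups overlapped (difference 0.50, SE 0.38, adjusted p 0.778). Control replicate 2 was the low array, and without it the difference was 0.14. Ndufaf4 differed by 0.30, and the lowest were Ndufaf1 at -0.16, Ndufaf8 at -0.07 and Ndufaf6 at -0.02. Without the 2 arrays that stood apart the median was 0.040, and between them it was 0.19.

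Complex II, which is also the succinate dehydrogenase of the tricarboxylic acid cycle, had a median difference of -0.030 over its 4 subunits (-0.098 without the 2 arrays that stood apart, 0.067 between them). Sdha, the flavoprotein that oxidises succinate, was 11.54, 11.15 and 11.60 in deficient colons, against 11.62, 11.27 and 11.49 in control colons. Sdhb, the iron-sulfur subunit, was 11.83, 11.21 and 11.87 in deficient colons, against 11.65, 11.66 and 11.70 in control colons. In both genes deficient replicate 2 was the lowest array and the groups overlapped, with a difference of -0.03 each (95% interval -0.51 to 0.45 for Sdha and -0.58 to 0.52 for Sdhb). The membrane anchors Sdhc and Sdhd differed by 0.06 and -0.11.

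Complex IV held the widest differences of the set. Of 13 genes tested, 5 were higher and 8 lower, with a median of -0.027 (-0.12 without the 2 arrays that stood apart, 0.043 between them). Several of its subunits exist as a widely expressed isoform and a tissue isoform, and these pairs were compared by genotype. Cox7a1 is the heart and skeletal muscle isoform of subunit 7a. It was 7.38, 5.98 and 8.94 in deficient colons, against 9.67, 8.78 and 8.0 in control colons. Deficient replicate 2 was low, deficient replicate 3 lay among the controls, and the groups overlapped. The difference was -1.38 (SE 0.82, 95% interval -3.41 to 0.65, adjusted p 0.729). It was -1.71 without the 2 arrays that stood apart and -0.73 between them. Leaving out 1 array moved it to -0.65 without deficient replicate 2 and to -2.13 without deficient replicate 3 (unadjusted p 0.023, adjusted p 0.456 in limma). Cox7a2, the widely expressed counterpart, was 13.88, 13.64 and 13.88 in deficient colons, against 13.49, 13.70 and 13.95 in control colons, and differed by 0.08. Cox7a2l, classed as a supercomplex factor, differed by -0.11.

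Cox8b, the isoform of subunit 8 known from heart, skeletal muscle and brown fat, was 2.88, 4.47 and 4.59 in deficient colons, against 4.59, 6.67 and 5.33 in control colons. The groups met at 4.59, the value of both arrays that stood apart, and deficient replicate 1 was below log2 4. The difference was -1.55 (SE 0.69, 95% interval -3.25 to 0.15, adjusted p 0.685). It was -2.33 without those 2 arrays and 0 between them, and -0.98 without control replicate 2. Cox8a, the widely expressed counterpart, was 11.92, 11.47 and 11.79 in deficient colons, against 11.44, 11.88 and 11.86 in control colons. It differed by 0.00, with a 95% interval of -0.52 to 0.52. The difference between the paired isoforms was not itself tested.

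Markers of tissues that use these isoforms were read on the same arrays. Of 11 striated muscle markers, 9 never exceeded log2 4, among them Mb, Myh1, Myh2 and Myh4. Of the other 2, Ckm, the muscle creatine kinase gene, was 6.34, 4.96 and 6.38 in deficient colons, against 5.52, 7.37 and 7.22 in control colons. The groups overlapped, with a difference of -0.82 (adjusted p 0.781) that was -1.65 without the 2 arrays that stood apart and 0.86 between them. Acta1, the skeletal muscle actin gene, differed by -0.16. Of 6 brown fat markers, Ucp1, Cidea and Elovl3 never exceeded log2 4. Kcnk3 read 5.29 on all 3 deficient arrays and 5.16, 6.31 and 5.29 in control colons. Dio2 was 5.21, 8.05 and 3.18 in deficient colons and 3.18 on each control array. Prdm16 was 5.73, 3.11 and 2.88 in deficient colons, against 4.13, 3.3 and 4.45 in control colons. Adipocyte markers were lower in deficient colons in 7 of 7 genes tested, beside 4505 of all 10491 genes, with a median difference of -0.97. The unadjusted p in limma was under 0.05 for 4 of them, beside 2.36% of all genes lower at that p. None was called. Their median was 6.49, 5.48 and 6.70 in deficient colons and 7.43, 8.93 and 7.14 in control colons, with the highest value on control replicate 2, where Cox8b was highest too. The lowest arrays differed: deficient replicate 2 for the adipocyte median, and deficient replicate 1 for Cox8b, at 2.88. The summed level of the adipocyte markers was 12.21 to 12.49 on the log2 scale in deficient colons and 13.01 to 14.02 in control colons, and Lep, the leptin gene, never exceeded log2 4. Smooth muscle markers lay at a median of 12.17, 11.90 and 11.44 in deficient colons, against 10.91, 12.41 and 12.36 in control colons. They were lowest on control replicate 1, where Cox7a1 was highest. The part of adipose or muscle tissue in the Cox7a1 and Cox8b differences was not tested.

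**Figure D3:**
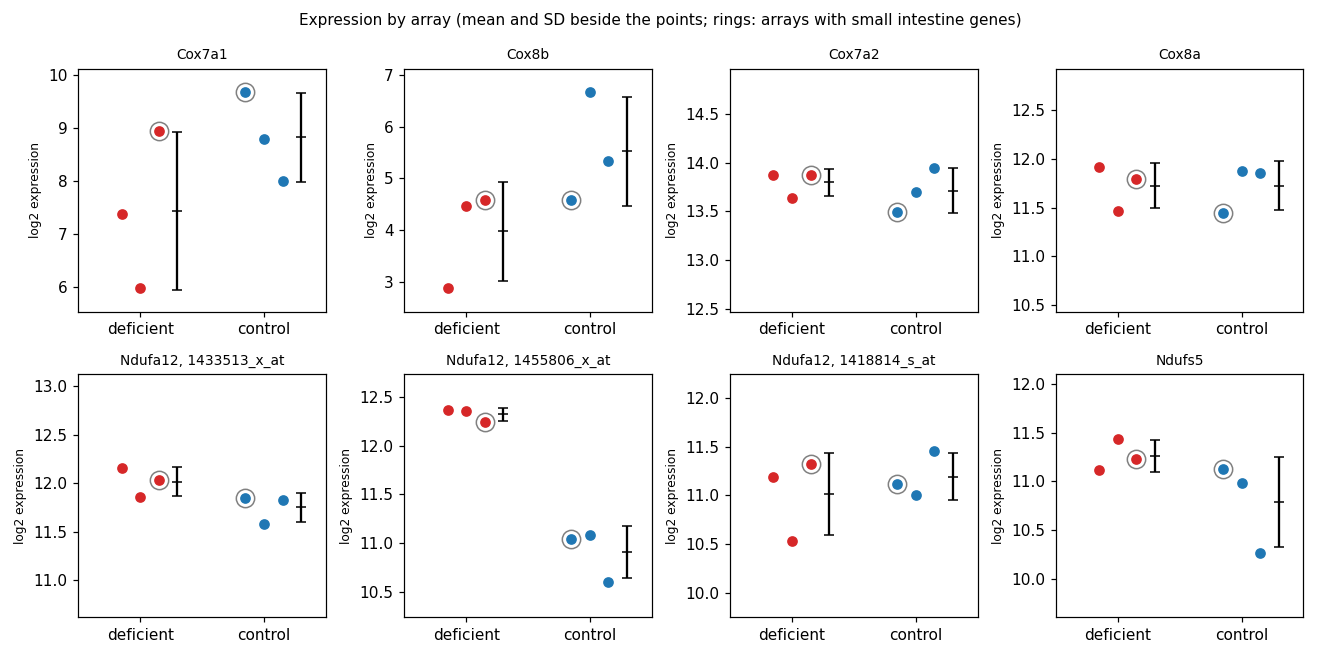
Log2 expression on each array of muscle and widely expressed isoforms of complex IV, of 3 Ndufa12 probe sets and of Ndufs5, with deficient arrays (red) left of control arrays (blue), replicates 1 to 3 from left to right, and the mean and SD (n = 3) beside the points. Rings mark the arrays with small intestine genes; each panel has its own range, and the groups lie far apart in the panel of 1455806_x_at alone.

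The remaining complex IV subunits had differences near 0 or, for Cox7c, a dim probe set. Cox4i1, the common isoform of subunit 4, was 13.94, 13.69 and 13.86 in deficient colons, against 13.87, 14.01 and 14.09 in control colons (difference -0.16, adjusted p 0.819). Cox5a differed by -0.04, Cox5b by 0.10, Cox6a1 by 0.03 and Cox6b1 by 0.02. The testis isoform Cox6b2 differed by -0.16. Cox7c was 6.88, 6.29 and 6.45 in deficient colons, against 6.31, 5.73 and 6.22 in control colons, so that deficient replicate 2 read just below control replicate 1 (difference 0.46, 95% interval -0.15 to 1.07, adjusted p 0.714). The gene Cox7b had no probe set of its own and was not analysed here.

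In complex V 17 genes were tested, 6 higher (35.3%, beside 57.1% of all genes) and 11 lower. Their median was -0.055 (-0.097 without the 2 arrays that stood apart, 0.052 between them). The catalytic head and the central stalk together had a median of -0.042 over 5 genes (-0.048 without those 2 arrays, 0.052 between them). Atp5a1, the alpha subunit, differed by 0.07, Atp5b, the beta subunit that forms ATP, by -0.04, and Atp5c1, the gamma shaft, by -0.16. The 3 Atp5g genes encode the same mature c subunit of the rotor ring. Atp5g1 differed by 0.24, Atp5g2 by 0.17 and Atp5g3 by 0.01, with a median of 0.17 (0.14 without those 2 arrays, 0.20 between them). The peripheral stalk, which holds the head still, had a median of -0.067 over 4 genes (-0.12 without those 2 arrays, 0.058 between them). The 5 genes of the membrane part were all lower on the 6 arrays, with a median of -0.065, but the sign was not stable. The median was -0.17 without the 2 arrays that stood apart and 0.039 between them, and leaving out 1 array turned Atp5k to as high as 0.22 and Atp5md to 0.12. Lowest was Atp5mpl, a small membrane protein of the synthase, at 12.41, 12.29 and 12.09 in deficient colons and 12.14, 12.82 and 12.48 in control colons (difference -0.21, adjusted p 0.830). Atp5d, of the central stalk, differed by -0.10 with deficient replicate 2 lowest, at 11.63. All 17 intervals of complex V lay within 1 log2 unit of 0.

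Values also varied between mice within a genotype. Deficient replicate 2 was the lowest of the 6 arrays for 33 of 75 genes (44%), against 18.3% of all genes. It was so for 13 of 33 complex I subunits, 2 of 4 in complex II, 6 of 13 in complex IV and 10 of 17 in complex V. Measured from each gene's mean over 6 arrays, the median deviation on that array was -0.09 in complex I, -0.22 in complex II and -0.19 in complexes IV and V, while that of all genes was 0.06. Deficient replicate 1 was the highest array for 25 genes (33.3%), with a median deviation of 0.11 over the set. Without deficient replicate 2 the median difference of the 75 genes was 0.11, and those of complexes II, IV and V were 0.12, 0.098 and 0.090. On the same array the marker medians of macrophages (8.96), neutrophils (8.75), proliferating cells (9.80), colonocytes (9.37) and pericytes (9.07) were the highest of the 6. The summed level of the colonocyte markers was not, at 15.22 against 15.67 on control replicates 2 and 3. Marker medians of small intestine enterocytes (4.21) and adipocytes (5.48) were the lowest of the 6 there. The part of these cell types in the low values was not tested.

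**Figure D4:**
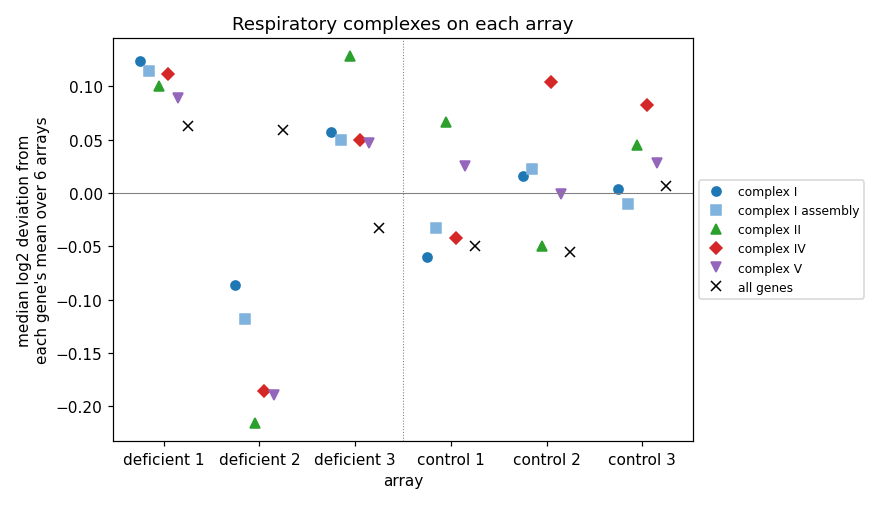
Median log2 deviation from each gene's mean over 6 arrays, by complex and for all genes, on each array, with deficient arrays left of control arrays. Deficient replicate 2 shows every complex below 0, while all genes lie at 0.06.

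Of the set, 7 genes did not pass the filter. Cox6a2, the muscle isoform of subunit 6a, and the testis isoforms Cox7b2 and Cox8c stayed at the floor of 2.25 on the arrays of both genotypes. Cox4i2, the lung and hypoxia isoform of subunit 4, read 2.36 to 2.48. Ndufa4l2, a relative of Ndufa4 known to respond to hypoxia, read 2.25 to 2.42. Ndufb1 read 3.90 to 4.02. Ndufb4 read 2.25 on its own probe set, and its other probe sets name several genes and were not used.

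Genes that work beside these complexes were counted in the same fit. Complex III and cytochrome c, which link the other complexes, had 4 genes higher and 6 lower (median -0.042), with Cycs at 0.16 and Uqcr10 at -0.16. The assembly factors of complexes II, IV and V had 13 higher and 12 lower (median 0.0019), with the RNA-binding protein gene Slirp at 0.45 and the inner membrane insertase gene Cox18 at -0.38. Complex I assembly factors outside the Nduf names had 6 higher and 4 lower (median 0.040), with Dmac1 at 0.41 and Nubpl, which delivers iron-sulfur clusters to complex I, at -0.37. Tricarboxylic acid cycle genes had 4 higher and 8 lower (median -0.14), with the succinyl-CoA ligase subunits Sucla2 at -0.45 and Suclg2 at -0.41. Carriers, porins and uncoupling proteins had 3 higher and 3 lower (median -0.0096), with the porins Vdac3 at -0.49 and Vdac1 at -0.14. No gene of these lists was called.

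Among 17 regulators of mitochondrial biogenesis tested, 12 were higher and 5 lower (median 0.089), none was called, and 2 were lower at an unadjusted p under 0.05, beside 2.36% of all genes. The groups did not overlap for 3 of the 17, beside 13.5% of all genes in either direction. Of these Tfam was higher, at 9.34, 9.36 and 9.72 in deficient colons, against 9.24, 9.11 and 9.15 in control colons (difference 0.31, adjusted p 0.718 in limma). Ppargc1a, which encodes PGC-1 alpha, was 6.54, 5.23 and 5.86 in deficient colons, against 6.98, 8.18 and 8.21 in control colons. Ppara, the gene of PPAR alpha, was 6.82, 4.82 and 6.70 in deficient colons, against 7.97, 8.27 and 8.0 in control colons. The groups did not overlap for either gene, as for 4.15% of all genes in that direction, and deficient replicate 2 was the lowest array for both. The difference was -1.92 for Ppargc1a (SE 0.48) and -1.96 for Ppara (SE 0.56), each with an adjusted p of 0.659. Without the 2 arrays that stood apart the differences were -2.31 for both genes, and between those arrays -1.12 and -1.27. The adipocyte markers that were lower on the same arrays are given above, and their part in these differences was not tested.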

How the data were processed

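The authors deposited log2 expression values, 1 per probe set and array. GCRMA, named in the submitters' processing notes, corrects each probe for a background predicted from its sequence, and its version is not given in the sources used here. Values ran from 2.25 to 16.2. Differences near the floor are compressed.

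Of 45101 probe sets, 34958 named 1 gene in the platform annotation, for 18194 genes. Probe sets above log2 4 on at least 3 of 6 arrays were kept (17031), and the brightest kept probe set stood for each gene, which left 10491 genes. The genotypes were tested two-sided by lmFit and eBayes (limma 3.58.1, R 4.3.3), with Benjamini-Hochberg adjustment over all genes and calls under 0.05. No covariate was used and no further normalization applied. The scripts were tested on simulated data. The 3 arrays per genotype, labelled biological replicates, limit the precision.

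The genes, lists and tests were chosen with earlier results of these data known. Genes were named by a rule: core subunits, isoform pairs, the 3 highest and 3 lowest per complex, genes whose groups do not overlap, genes whose probe sets lie over 1 apart, genes that vary by over 2, genes below the filter, and for other lists those of smallest p. Alternatives covered the filter, scaling, choice of probe set, variance model, array weights, floor, blocks and left-out arrays.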

Additional observations from a re-analysis of the deposited data

How the results depend on the processing

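Of 778 values of single genes under the alternatives, 766 moved by no more than 1 SD between mice (sign changes within it included, as for Ndufs1, Ndufs3, Sdhc and Atp5g3 with quantile normalization), 2 moved further and 10 reversed beyond it, and none came past the threshold. Of the respiratory complex genes, 0 were called in limma under each of the 19 alternatives. Unadjusted p-values under 0.05 appeared for 5 of them with array weights (Ndufa12, Ndufs5, Ndufaf3, Cox7c and Cox8b), for Cox7a1 and Cox8b without both arrays with small intestine genes, and for a lone gene (Ndufaf3, Ndufa12, Cox7a1 or Cox8b) under several others. Over all genes, 1 was called with probe sets lacking cross-hybridisation suffixes, 2 with array weights and 1 among probe sets tested on their own, none of them a gene of the set. With array weights the medians were 0.093 for the set and 0.12, 0.086, 0.023 and 0.069 for complexes I, II, IV and V. With quantile normalization they were -0.044 for the set and -0.019, -0.094, -0.073 and -0.089 for the complexes. Leaving out 1 array at a time gave medians of -0.056 to 0.11 for the set, -0.036 to 0.11 for complex I, -0.12 to 0.12 for complex II, -0.098 to 0.098 for complex IV and -0.10 to 0.090 for complex V; the highest were those without deficient replicate 2 (0.115, 0.121, 0.098 and 0.090 for the set and complexes II, IV and V). The cause of these shifts was not tested.

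These 12 values came with another choice of probe set. The mean of all probe sets gave 0.50 for Ndufa12, which kept its direction, and -0.085 for Sdhc. Ndufa12 on 1455806_x_at also kept its direction, at 1.42. The others reversed. Probe sets without suffixes gave -0.15 for Cox6b1 and 0.072 for Ndufaf8. The Ndufaf8 probe set that gave 0.072 read 6.93 on every array except deficient replicate 3, at 7.15. On their own, dimmer probe sets gave -0.23 for Sdhc, -0.15 for Cox6b1, 0.072 for Ndufaf8, -0.096 for Cox6a1, -0.18 for Ndufa12, -0.063 for Ndufa7 and 0.27 for Ndufv2. The cause was not tested.

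Deviations of same-numbered arrays correlated at -0.54, 0.36 and -0.61 over genes. Deficient replicate 3 and control replicate 1, the arrays with small intestine genes, correlated at 0.69 and carry different numbers. These correlations therefore cannot decide whether the replicate numbers pair the arrays. With the number as a replicate block, 0 genes and 0 respiratory complex genes were called, 437 genes had an unadjusted p under 0.05, against 783 without the block, and the median differences were 0.0067 for the set, 0.045, -0.030, -0.027 and -0.055 for complexes I, II, IV and V.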
